A study of Homo sapiens with 12 samples.

Results

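The transcripts of CXCL10, CXCL11 and CXCL9, the ligands of the chemokine receptor CXCR3, were described in HT1080 cells given PMA or ConA. The members were taken by name, as the rows CXCL10 and CXCL11 and, where a row was found, CXCL9. The rule uses no measured value, but the members were chosen with earlier results of these data known. All 3 genes had a row in the table of the ConA experiment and 1, CXCL11, had a row in the table of the PMA experiment, among 16633 genes listed in either table. CXCL10 and CXCL9 are not listed in the PMA table used here, so no value with PMA is given for them.

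CXCL9, CXCL10 and CXCL11 are small secreted chemokines that share the receptor CXCR3 and draw activated T cells and natural killer (NK) cells towards their source. Their genes lie side by side and are classic targets of interferon signalling, in which STAT and IRF factors bind interferon-stimulated response elements (ISRE) and gamma-activated sites (GAS), and NF-kB sites in the same promoters respond to TNF, interleukin-1 and viral RNA. CXCL9 is known as the most strictly interferon gamma-dependent of the set, while CXCL10 and CXCL11 also respond to type I and type III interferons.

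HT1080 is a human fibrosarcoma line, here labelled wild type. RNA was sequenced in 12 libraries, in 4 groups of 3. PMA (phorbol 12-myristate 13-acetate), a phorbol ester that activates protein kinase C, was given at 40 nM for 24 h, and ConA (concanavalin A), a mannose-binding lectin of the jack bean, was given at 40 µg/mL for 24 h, each with 3 untreated control libraries in its own table. All 4 groups were grown in biotin-depleted medium and moved to low-serum biotin-depleted medium at 3 days after seeding, so the controls share the biotin depletion and the low serum. HT1080 is a single tumour line and the labels name no other cell type. The labels do not say whether the 3 libraries of a group came from separate cultures, so the p-values cover the spread between these libraries, which may be technical.

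The values are normalized counts, estimated reads per gene divided by a factor per library within each table. Libraries held 33649313 to 45587905 estimated reads. Levels are compared within a table, because the tables were normalized separately, and levels of different genes are compared only per kilobase of transcript. Tests used limma on log2(normalized count + 1) over all genes with a mean of at least 10, and a call needed a log2 fold change of 1 or more in either direction with a Benjamini-Hochberg adjusted p no higher than 0.0001. All 4 mesenchymal markers (VIM, FN1, CDH2 and SPARC) were listed in both tables, with a summed level of 364800 to 566472 normalized counts. Of 9 T and NK cell markers, 8 were listed in the PMA table, with a summed level of 747 to 816 in its controls and 887 to 1543 with PMA. In the ConA table only CD3D of these 9 was listed, at 21.6 to 26.1 with ConA and 21.9 to 31.0 in the controls.

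The sequences upstream of the 3 genes are shown because the members moved together with ConA and because the interferon and NF-kB motifs in them can be read directly. They are the 250 bases before the RefSeq transcript start on GRCh38.p14, all on the minus strand, at chr4:76023498-76023747 for CXCL10, chr4:76036071-76036320 for CXCL11 and chr4:76007510-76007759 for CXCL9. Capitals mark matches to ISRE (GAAANNGAAA), GAS (TTCNNNGAA), AP-1 (TGANTCA) and NF-kB, searched on both strands.
CXCL10 upstream window: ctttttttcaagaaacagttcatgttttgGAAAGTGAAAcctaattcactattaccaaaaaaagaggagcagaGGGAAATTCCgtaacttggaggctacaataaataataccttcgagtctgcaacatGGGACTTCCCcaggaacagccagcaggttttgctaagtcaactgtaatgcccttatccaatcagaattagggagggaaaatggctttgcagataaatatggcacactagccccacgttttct
CXCL11 upstream window: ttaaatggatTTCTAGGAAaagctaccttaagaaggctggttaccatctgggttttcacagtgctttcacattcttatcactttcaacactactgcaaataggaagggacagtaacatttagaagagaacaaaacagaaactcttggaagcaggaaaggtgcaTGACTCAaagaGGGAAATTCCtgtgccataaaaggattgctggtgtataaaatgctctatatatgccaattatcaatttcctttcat
CXCL9 upstream window: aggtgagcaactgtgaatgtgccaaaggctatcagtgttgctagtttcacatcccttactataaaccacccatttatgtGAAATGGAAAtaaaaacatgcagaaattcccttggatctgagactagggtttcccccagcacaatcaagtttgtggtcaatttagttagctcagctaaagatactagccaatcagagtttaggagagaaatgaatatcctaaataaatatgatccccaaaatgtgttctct

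The CXCL10 window held an ISRE match, GAAAGTGAAA, at 221 to 212 bases before the start and a pair of NF-kB matches, GGGAAATTCC at 177 to 168 and GGGACTTCCC at 122 to 113. The CXCL11 window held no ISRE match, a GAS match, TTCTAGGAA, at 240 to 232, an AP-1 match, TGACTCA, at 87 to 81, and 1 NF-kB match at 76 to 67. The CXCL9 window held 1 match, an ISRE, GAAATGGAAA, at 171 to 162. No match overlapped another. Of 35116 RefSeq windows of this length, 3.02% held an ISRE match, 6.57% a GAS match, 9.96% an NF-kB match and 6.57% an AP-1 match.

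The NF-kB match of CXCL10 that lies farther from the start has the same letters as the match of CXCL11, and the nearer one, GGGACTTCCC, does not. The matches with the same letters lie inside the longest run of bases that the pair of windows shares, AGAGGGAAATTCC, of 13 bases. That run was found in 4 of the 35116 windows, a count that includes the windows of the pair itself. The longest runs that CXCL9 shares with the others were shorter, CCAATCAGA (9 bases, 1.48% of windows) with CXCL10 and TTTCACAT (8 bases, 0.926%) with CXCL11. A match in these letters is a description and not a measured binding site, and no match says only that these letters are not in this window.

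**Figure D1:**
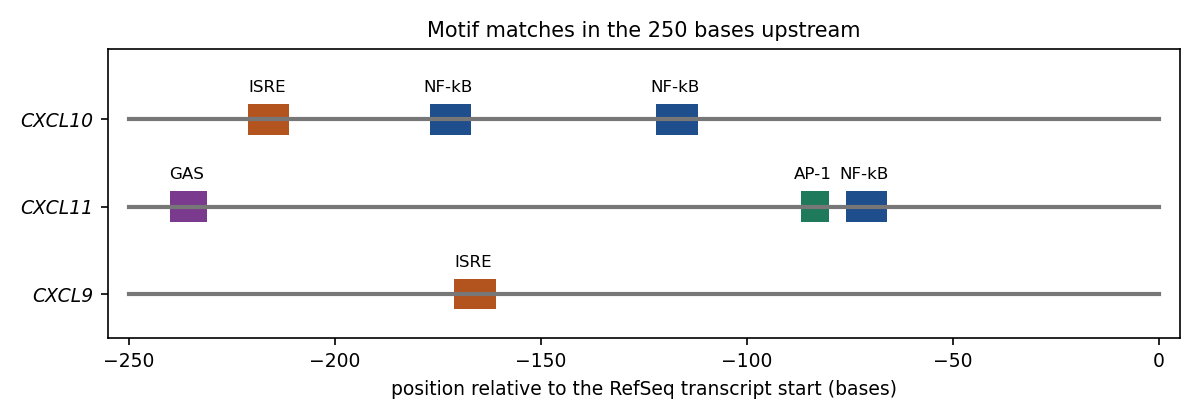
Motif matches (coloured boxes) in the 250 bases before the RefSeq transcript start of CXCL10, CXCL11 and CXCL9, with the position in bases on the horizontal axis and the start at 0. CXCL10 and CXCL11 both hold an NF-kB match, CXCL10 and CXCL9 an ISRE match, and the GAS and AP-1 matches are in CXCL11.

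The genes sit next to each other on the minus strand of chromosome 4. GENCODE v29 (GRCh38) gives CXCL9 at chr4:76001275-76007488, CXCL10 at chr4:76021117-76023497 and CXCL11 at chr4:76033682-76041415, each with 4 exons in its first transcript. The CXCL11 record has 2 transcripts and extends upstream of the RefSeq start used above. CXCL10 and CXCL11 lie within the span of ART3 (chr4:76011184-76112802), a gene on the opposite strand, and CXCL9 lies outside it. ART3 is not listed in either table, and whether the counting used strand is not stated in the sources used here.

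With ConA, all 3 ligands rose, and CXCL10 and CXCL11 had the highest and second-highest log2 fold changes of the 15139 genes tested. CXCL10 stood at 16553, 23373 and 22294 normalized counts in the 3 ConA libraries. In the 3 controls CXCL10 stood at 12.5, 28.01 and 17.03, on 12, 28 and 17 reads. Every ConA library was far above every control, and the first ConA library was the lowest of the treated.
From 19.2 ± 7.98 (SD, n = 3) to 20740 ± 3666 (SD, n = 3), the rise of CXCL10 was 1081-fold in the means, and the log2 fold change was 10.06 (standard error 0.20, adjusted p = 1.85e-14, limma). In bulk RNA, more cells that express a gene and more RNA per cell cannot be told apart. Among the genes tested with ConA, 8.71% were called in either direction and 5.83% were called higher.

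CXCL11 stood at 10243, 13896 and 12696 normalized counts with ConA. Its controls in that table stood at 13.5, 23.0 and 22.0, on 13, 23 and 22 reads. The groups did not overlap, and the first ConA library was again the lowest of its group. The means rose from 19.5 ± 5.21 (SD, n = 3) to 12278 ± 1862 (SD, n = 3), 629-fold, and the log2 fold change was 9.25 (standard error 0.16, adjusted p = 3.22e-15, limma).

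CXCL9 stood at 25.03, 59.6 and 47.6 normalized counts with ConA, on 25, 57 and 53 reads. Its controls stood at 0, 1.00 and 0, on 1 read in all. CXCL9 was thus nearly undetected without ConA and low with it, and the groups did not overlap. CXCL9 was listed and tested only through its ConA libraries, which favours a rise without overlap, so its adjusted p below is not free of this selection. The ratio of the group totals was 130, with an exact 95% counting interval of 23.0 to 5177 that covers counting error only. The fitted log2 fold change was 5.08 (standard error 0.52, adjusted p = 9.71e-07, limma), rank 52 from the highest. That value depends on the pseudocount, and without a variance trend in the limma fit CXCL9 did not pass the threshold (adjusted p = 0.000188).

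**Figure D2:**
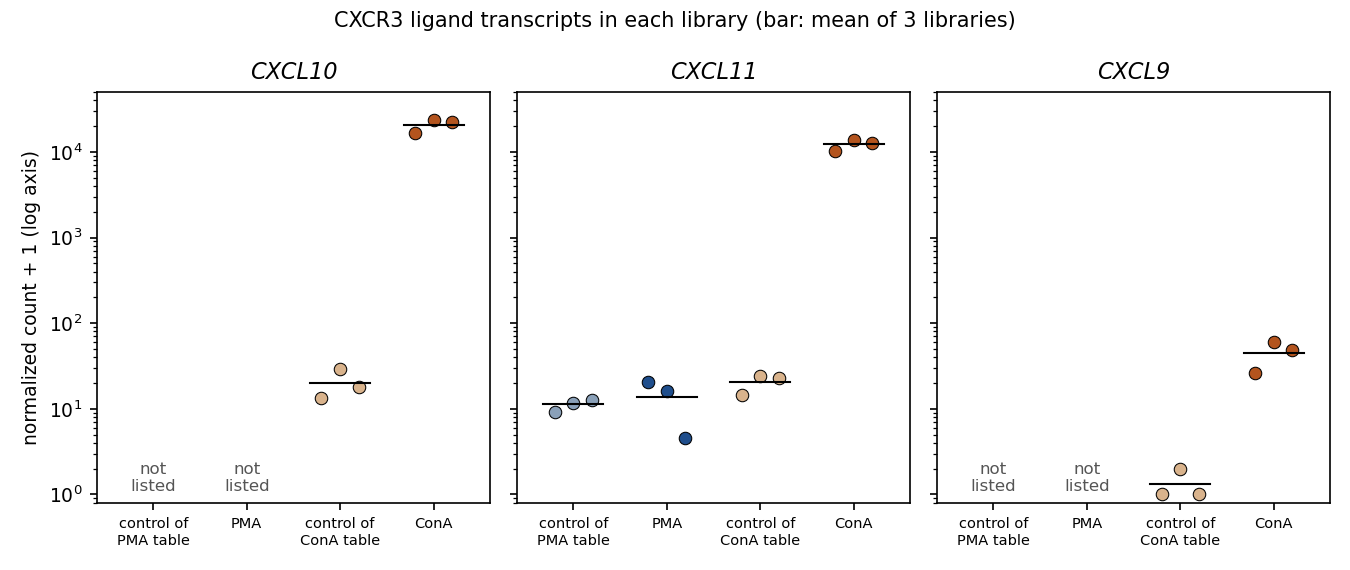
Normalized count + 1 (log axis) of CXCL10, CXCL11 and CXCL9 in each library, by group, with the mean of 3 libraries as a bar. The ConA libraries lie at 16553 to 23373 for CXCL10, at 10243 to 13896 for CXCL11 and at 25.03 to 59.6 for CXCL9, and the CXCL11 libraries with PMA lie on both sides of their controls.

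For each ligand the exact two-sided permutation test over the 6 ConA and control libraries gave p = 0.1, the smallest that 3 libraries against 3 can give. Over all genes tested with ConA, 34.9% had every treated library above every control, as the 3 ligands had. For CXCL9 this order was favoured by its listing through the ConA libraries alone. The first ConA library was the lowest of its group for all 3 ligands, at log2 differences from the mean of the other libraries of -0.46 for CXCL10, -0.38 for CXCL11 and -1.07 for CXCL9. That library was the lowest for 38.4% of all genes tested and for 71.1% of the genes called higher with ConA. Without it the log2 fold changes were 10.22 for CXCL10, 9.37 for CXCL11 and 5.43 for CXCL9.

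With ConA the ligand transcripts moved from the low end to the high end of the library in the case of CXCL10 and CXCL11. Per kilobase of transcript, CXCL10 ranked at the 12.2nd to 17.6th percentile of genes in the ConA controls and at the 99.0th to 99.4th percentile with ConA. CXCL11 ranked at the 10.8th to 14.1st percentile in the controls and at the 97.2nd to 98.3rd percentile with ConA, and with its shorter transcript as the length at the 15.7th to 19.3rd and the 99.0th to 99.3rd. CXCL9 reached only the 10.2nd to 16.3rd percentile with ConA, the range in which CXCL10 and CXCL11 lay without it. In counts, CXCL10 made up 0.0401% to 0.0576% of the ConA libraries, with a mean of 0.0507% ± 0.00933 (SD, n = 3), and CXCL11 0.0300% ± 0.00479 (SD, n = 3).

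In the ConA table the spread between libraries exceeded counting noise in each case below, by the largest factor at the high levels. The coefficient of variation over the 3 ConA libraries was 17.7% for CXCL10 and 15.2% for CXCL11, where counting alone would give 0.686% and 0.893%. In the 3 controls of the ConA table it was 41.6% for CXCL10 and 26.7% for CXCL11, on 12 to 28 reads, where counting alone would give 22.9% and 22.7%. For CXCL9 with ConA it was 39.8%, where counting alone would give 14.9%.

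The ratio of CXCL10 to CXCL11 was higher in every ConA library than in every control. The ratio of CXCL10 to CXCL11 in normalized counts, whose change between groups does not depend on transcript length, was 1.62, 1.68 and 1.76 with ConA and 0.923, 1.22 and 0.773 in the controls, where it rests on 12 to 28 reads of each gene. On the log2 scale the rise of CXCL10 exceeded that of CXCL11 by 0.81 (standard error 0.19), with an exact two-sided permutation p of 0.1, the smallest this design allows. Per kilobase of the longest transcript, of 1176 bases for CXCL10 and 1606 for CXCL11, the ratio was 2.30 ± 0.0955 (SD, n = 3) with ConA and 1.33 ± 0.309 (SD, n = 3) in the controls. With the other CXCL11 transcript, of 767 bases, a choice made after the data were seen, it was 1.10 ± 0.0456 (SD, n = 3) and 0.633 ± 0.148 (SD, n = 3), so which of the pair was higher in the controls depends on the transcript. Per kilobase, CXCL10 stood at 1182 ± 323 times (SD, n = 3) and CXCL11 517 ± 159 times (SD, n = 3) the level of CXCL9 in the ConA libraries. With the shorter transcript the value for CXCL11 was 1082 ± 334 (SD, n = 3).

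With PMA, CXCL11 did not pass the test. It stood at 19.7, 15.2 and 3.59 normalized counts with PMA, on 17, 16 and 3 reads, and at 8.30, 10.7 and 11.7 in the PMA controls, on 9, 12 and 13 reads. Of the PMA libraries 2 lay above all controls and the third below them, so the groups overlapped. The log2 fold change was 0.05 (standard error 0.53, adjusted p = 0.941, limma), at rank 6851 from the highest of 15153 genes tested, and the exact two-sided permutation test gave p = 1. Its sign turned to -0.19 without PMA library 2 and to -0.08 without PMA control library 1, and the value was 0.72 (adjusted p = 0.110) without PMA library 3, all from limma. Without PMA library 1 its mean lay under the minimum of 10, so that fit gave no value. Of the genes tested with PMA, 8.65% were called, 4.03% higher and 4.61% lower.

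The change of CXCL11 with PMA was lower than its change with ConA (difference of PMA minus ConA -9.20 on the log2 scale, standard error 0.54, adjusted p = 1.39e-10, limma over 12 libraries). That was the second most negative of the 15030 differences tested, of which 10.6% were called and 6.89% were called lower. As a share of the library's normalized counts, the control levels of CXCL11 were 2.23e-05% to 3.19e-05% in the PMA table and 3.19e-05% to 5.33e-05% in the ConA table. The lowest ConA control lay just above the highest PMA control, in tables normalized separately.

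**Figure D3:**
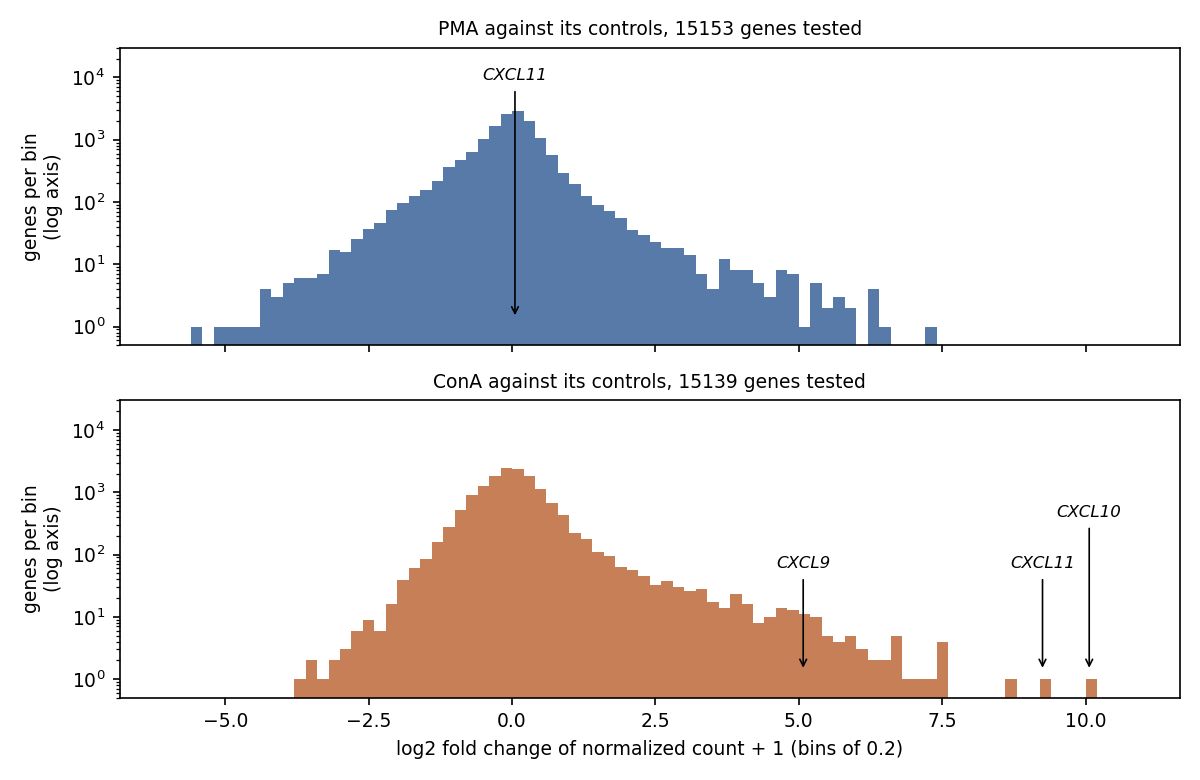
Number of genes per bin of log2 fold change (log axis) for PMA and for ConA against their own controls, with arrows at the listed ligands. CXCL11 sits at 0.05 with PMA, and CXCL9, CXCL11 and CXCL10 sit at 5.08, 9.25 and 10.06 with ConA.

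On the receiving side of the ligands, 3 genes were followed: the receptor CXCR3, the scavenging receptor ACKR3, which takes up CXCL11, and the peptidase DPP4, which trims the ligands. CXCR3 is listed in the PMA table only, at 41.8, 56.1 and 45.5 normalized counts with PMA and 33.2, 47.4 and 28.9 in its controls. The groups overlapped, and the log2 fold change of 0.40 (standard error 0.23) was not called (adjusted p = 0.145, limma). CXCR3 is a T and NK cell gene, and it was listed in the table in which 8 of 9 T and NK cell markers were listed. The part of such RNA in the CXCR3 level was not tested.

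ACKR3 fell with both treatments. It stood at 13.9, 7.60 and 13.2 normalized counts with PMA and 171, 198 and 186 in the PMA controls. With ConA it stood at 16.0, 16.7 and 9.88, and at 74.0, 91.0 and 71.1 in the ConA controls. The treated libraries lay under the controls in both tables. Its log2 fold change was -3.92 (standard error 0.23, adjusted p = 4.85e-08) with PMA, where 4.61% of genes were called lower, and -2.41 (standard error 0.25, adjusted p = 1.09e-06) with ConA, where 2.88% were, both from limma.

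DPP4 rose with ConA, from 3.13, 6.00 and 8.01 normalized counts to 48.1, 40.8 and 58.4, without overlap. Its log2 fold change with ConA was 2.96 (standard error 0.35, adjusted p = 3.92e-06, limma). With PMA it stood at 180, 142 and 198, and at 149, 118 and 87.6 in the controls. These groups overlapped and DPP4 was not called (log2 fold change 0.56, adjusted p = 0.0207, limma). The change with PMA was lower than that with ConA (log2 difference -2.39, adjusted p = 3.01e-05, limma). The call of this difference was lost with a pseudocount of 10 (-1.38, adjusted p = 0.00021), without a variance trend (adjusted p = 0.000606), and without PMA library 2, ConA library 3 or PMA control library 1 or 2 (-2.21 to -2.38, adjusted p = 0.000117 to 0.00017), all from limma. The call of DPP4 with ConA was lost without a variance trend (adjusted p = 0.000437, limma). DPP4 is also a T cell gene, and its higher level in the PMA controls was in the libraries with the higher T and NK cell marker sum. The part of T and NK cell RNA in the DPP4 values was not tested.

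Of the 22 interferon genes looked for, which include the type I, II and III ligands that induce the CXCR3 ligands, 3 were listed in the ConA table and 2 in the PMA table. IFNL1, a type III interferon, stood at 36.0, 39.7 and 40.4 normalized counts with ConA and at 0, 3.00 and 2.00 in the controls. Its groups did not overlap, and its log2 fold change was 4.11 (standard error 0.51, adjusted p = 6.69e-06, limma). IFNL1 was listed and tested only through its ConA libraries, which favours a rise without overlap. The call was lost without ConA library 2 (adjusted p = 0.000104) or library 3 (adjusted p = 0.000128), with a pseudocount of 0.1 (adjusted p = 0.000333) and without a variance trend (adjusted p = 0.000856), all from limma. IFNB1, the type I interferon beta, stood at 8.01, 11.5 and 2.70 with ConA and at 0, 1.00 and 2.00 in the controls. IFNB1 was too low for the test, with a ratio of group totals of 7.07 and an exact 95% counting interval of 2.12 to 36.9. It was listed only through ConA library 2, which favours a ratio above that of the controls.

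IFNG, the type II interferon made by T and NK cells, is listed in the PMA table only, at 5.80, 8.56 and 14.4 normalized counts with PMA and at 0.922, 2.68 and 2.71 in the controls. It was too low for the test and was listed only through PMA library 3. IFNG and the T and NK cell marker sum (1543) were both highest in PMA library 3. CXCL11 was lowest in that library (3.59, on 3 reads), while CXCR3 was highest in PMA library 2 (56.1). The part of such RNA in the IFNG level was not tested. IFNE was called with neither treatment, with log2 values of 0.52 for PMA (adjusted p = 0.114) and -1.36 for ConA (adjusted p = 0.00974), both from limma.

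**Figure D4:**
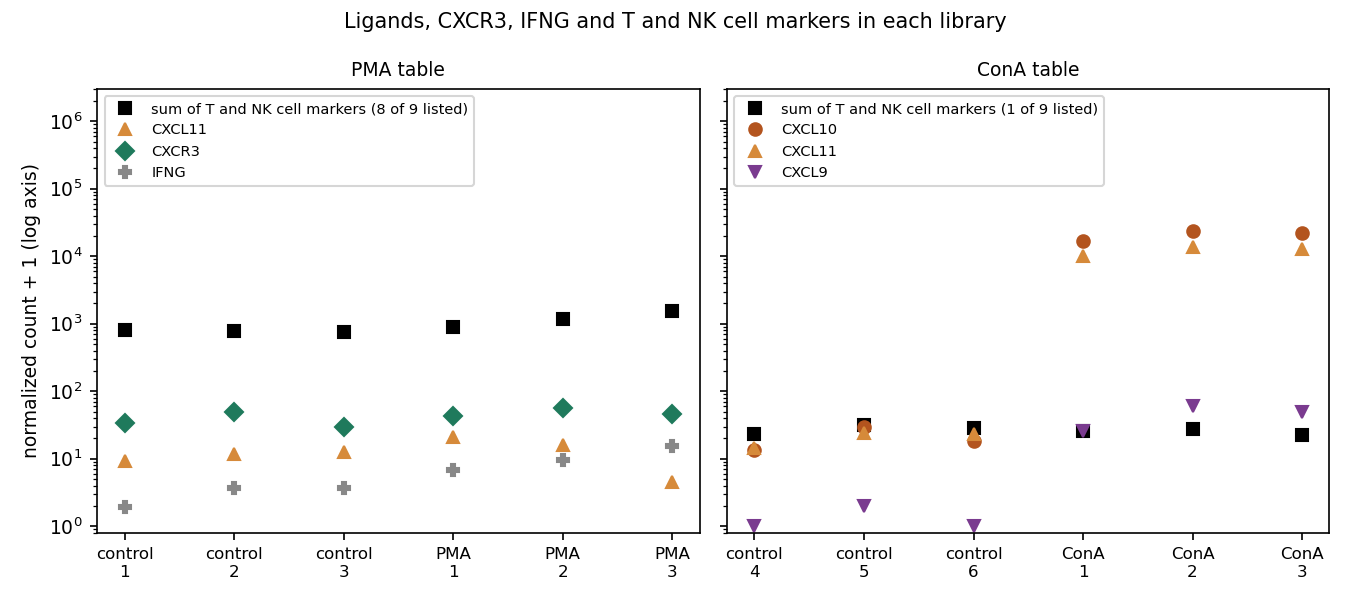
Normalized count + 1 (log axis) in each library of CXCL10, CXCL11, CXCL9, CXCR3 and IFNG, where listed, and of the sum of the listed T and NK cell markers, with the PMA table on the left and the ConA table on the right. CXCL10 and CXCL11 are at 10243 or more in ConA libraries where CD3D, the only marker listed, is at 21.6 to 26.1. The sum of the 8 markers listed in the PMA table is 747 to 1543.

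Cytokines other than interferons also induce the ligands. Of TNF, LTA, IL1A and IL1B, 3 of 4 tested were called higher with PMA and 1 of 3 tested was called higher with ConA. Of all genes, 4.03% were called higher with PMA and 5.83% with ConA. TNF rose with both, by 1.85 (adjusted p = 4.60e-05) with PMA and 2.15 (adjusted p = 1.10e-05) with ConA on the log2 scale (limma). The call of TNF with PMA was lost without any 1 of the PMA libraries, without PMA control library 1 or 2 (adjusted p = 0.000207 to 0.000362) and without a variance trend (adjusted p = 0.000468), and with ConA it was lost without ConA library 2 (adjusted p = 0.000124) or 3 (adjusted p = 0.000227), all from limma. IL1B rose by 3.39 with PMA (adjusted p = 1.62e-12, limma). With ConA IL1B (0.97, adjusted p = 6.58e-09) and IL1A (0.78, adjusted p = 1.11e-05) were higher but under the threshold of 1, from limma. IL1B with ConA was called after quantile normalization (1.07) and without ConA library 1 (1.04). The difference between the treatments was called for IL1B (2.42, adjusted p = 9.36e-14) and IL1A (1.07, adjusted p = 1.60e-06) and not for TNF (-0.30, adjusted p = 0.477), all from limma. That of IL1A was under the threshold of 1 without ConA library 1 (0.95) or ConA control library 4 (0.99).

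Of 8 receptors and kinases through which interferons act, 1 was called higher with PMA (IFNGR2, 1.10) and 1 with ConA (IFNAR2, 1.15), beside 8.65% and 8.71% of all genes called. IFNAR2 with PMA (0.94) and IFNGR2 with ConA (0.83) were under the threshold of 1. At an unadjusted p under 0.05, 8 of the 8 were higher with ConA, and with PMA 6 were higher and 1 lower. The share of all genes at this unadjusted p was not computed, here or for such counts below. IFNGR2 with PMA was under the threshold of 1 after quantile normalization (0.99). By limma 0 of the 8 differences between treatments were called, beside 10.6% of all genes, with 7 at an unadjusted p under 0.05. The median over the 8 was 0.40 with PMA and 0.51 with ConA, beside medians over all genes tested of 0.003 with PMA and -0.002 with ConA. JAK2, the kinase of the interferon gamma receptor, had values of -0.08 with PMA and 0.80 with ConA and was not called.

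The STAT and IRF factors, which bind ISRE and GAS sites, were counted together with BATF2, which is neither a STAT nor an IRF. Of these, 5 of 8 tested were called higher with ConA, beside 5.83% of all genes. With PMA 0 of 9 were called by limma in either direction, beside 8.65% of all genes. Of the 9, 7 stood at an unadjusted p under 0.05, of which 3 higher and 4 lower. STAT2, a subunit of the complex that binds ISRE sites, stood at 8646, 8827 and 9389 normalized counts with ConA and 2239, 2261 and 2285 in the controls, without overlap. Its log2 fold change was 1.98 (standard error 0.05, adjusted p = 3.69e-13) with ConA and -0.24 (standard error 0.05, adjusted p = 0.000794) with PMA, from limma. IRF1 (1.22) and BATF2 (3.00) rose with ConA as well, while IRF9, the DNA-binding subunit of the same complex, had 0.82 and was under the threshold. The differences between the treatments were called for 4 of the 8, beside 10.6% of all genes. They were those of these same genes, from -1.20 for IRF9 to -2.99 for BATF2. IRF2 and IRF5 were the other factors called with ConA (1.02 and 1.12), and their differences of -0.43 (adjusted p = 0.00044) and -0.67 (adjusted p = 0.000918) were not called, from limma. IRF2 with ConA was under the threshold of 1 without ConA library 3 or ConA control library 4, after median centring and after quantile normalization (0.95 to 0.99).

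Of 5 NF-kB subunits, 3 rose with each treatment, NFKB1, NFKB2 and RELB, beside 4.03% of all genes called higher with PMA and 5.83% with ConA. RELA had 0.39 with PMA and 0.48 with ConA, and REL 0.82 and 0.64, and neither was called. After quantile normalization RELB with PMA was just under the threshold of 1. NFKB1 rose by 1.28 with PMA and 1.09 with ConA on the log2 scale, and NFKB2 by 1.33 and 1.64. The NFKB1 difference between treatments of 0.19 was not called (adjusted p = 0.0159, limma). By limma 0 of the 5 differences were called, beside 10.6% of all genes, with 3 at an unadjusted p under 0.05.

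Among 5 feedback inhibitors, NFKBIA and TNFAIP3, which restrain NF-kB, rose with both treatments, and USP18, which restrains the type I interferon receptor, rose with ConA and fell with PMA. USP18 stood at 9890, 11105 and 11361 normalized counts with ConA and 350, 366 and 396 in its controls. With PMA it stood at 113, 118 and 126, and at 266, 252 and 241 in its controls. The groups did not overlap in either table, with log2 fold changes of 4.86 (adjusted p = 2.92e-16) and -1.09 (adjusted p = 2.01e-06), from limma, and with PMA -0.92 after quantile normalization, under the threshold. SOCS1 and SOCS3 were called with neither.

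The next list held nucleic acid sensors with their adaptors and kinases, which switch on interferon and chemokine genes. Of these, 8 of 11 tested rose with ConA, beside 5.83% of all genes called higher. With PMA 1 of 10 rose and 1 fell, beside 4.03% of all genes called higher and 4.61% called lower. The RNA sensors DDX58 (3.41) and IFIH1 (4.17), the endosomal TLR3 (2.46) and the Z-form nucleic acid sensor ZBP1 were among the 8. ZBP1 stood at 326, 344 and 398 normalized counts with ConA and at 1.04, 1.00 and 1.00 in its controls, a ratio of 353 with an exact 95% counting interval of 120 to 1713. ZBP1 was listed and tested only through its ConA libraries. With PMA, TLR3 fell (-1.74) and CGAS, the cytosolic DNA sensor, rose (1.20).

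The lists of other interferon targets were written with the outcome known. Of 20 antiviral targets, 20 rose with ConA, beside 5.83% of all genes, with a median log2 fold change of 4.72. With PMA 11 of the 20 fell and 0 rose by limma (1 was higher at an unadjusted p under 0.05), with a median of -1.03. Of all genes, 4.61% were called lower and 4.03% higher with PMA. RSAD2 rose by 7.38 with ConA and fell by 1.50 with PMA, IFI44L rose by 6.79 and fell by 3.02, and OASL rose by 5.87 and was not called with PMA (-0.37). Without PMA control library 1 the fall of IFI44L was not called (-2.88, adjusted p = 0.000338, limma). Of the interferon gamma-typical targets, 11 of 15 tested rose with ConA (median 2.25), and with PMA 1 of 14 rose and 2 fell (median -0.33). The same shares of all genes stand beside these counts. IDO1, which degrades tryptophan, stood at 789, 943 and 903 normalized counts with ConA and at 9.38, 4.00 and 1.00 in the controls, and its log2 fold change of 7.54 did not pass without a variance trend (adjusted p = 0.000151, limma). The guanylate-binding GBP4 and GBP5 rose by 7.47 and 7.17, and CIITA, the driver of class II antigen presentation, was not called with ConA (0.53) and fell by 1.55 with PMA.

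**Figure D5:**
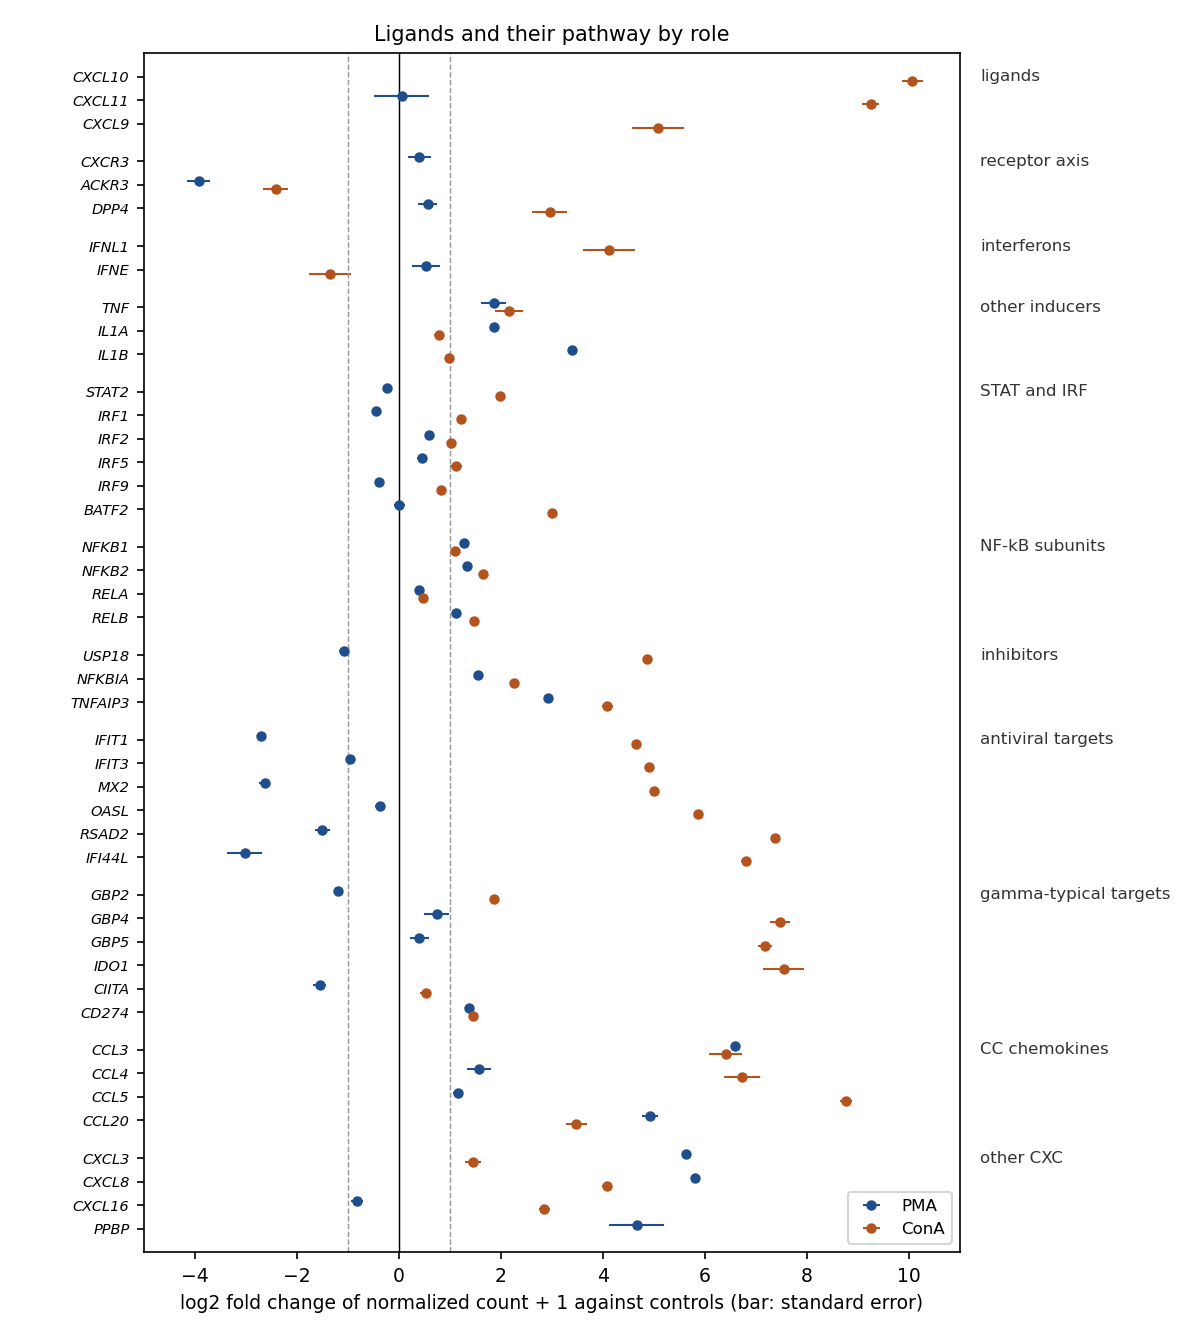
Log2 fold change of normalized count + 1 (horizontal axis, with standard errors) with PMA (blue) and ConA (orange) for the ligands and named pathway genes by role, with the threshold of 1 in either direction as dashed lines. The ligands and interferon targets lie to the right with ConA and at or left of the centre with PMA except GBP4, GBP5 and CD274, and the NF-kB subunits lie close together.

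Some of the other chemokines rose with both treatments and others were called with ConA and not with PMA. CXCL8 and CXCL3, which attract neutrophils, rose by 5.80 and 5.63 with PMA and by 4.08 and 1.45 with ConA. CXCL5, another neutrophil attractant, was not called with PMA (3.26, adjusted p = 0.000294) and was too low for the test with ConA, and its difference between the treatments was not called (-0.64, adjusted p = 0.481), from limma. PPBP, a platelet chemokine, is listed in the PMA table only, at 61.5, 59.9 and 64.7 normalized counts with PMA and 0, 4.47 and 1.81 in the controls. It rose by 4.66 (adjusted p = 1.65e-05), a call lost without any 1 of the PMA libraries (adjusted p = 0.000181 to 0.000261), with a pseudocount of 0.1 (adjusted p = 0.000637) and without a variance trend (adjusted p = 0.00137), all from limma. Among the CC chemokines, CCL3 rose by 6.59 and 6.41, and CCL20 by 4.92 and 3.48, and neither difference between treatments was called (adjusted p = 0.691 and 0.000163, limma). CCL5, a T cell attractant, stood at 34592, 52169 and 52639 normalized counts with ConA and 96.9, 108 and 106 in the controls, and rose by 8.77 on the log2 scale (adjusted p = 2.88e-16, limma). With PMA it stood at 1385, 1489 and 1591, and at 797, 626 and 586 in the controls, and rose by 1.16 (adjusted p = 1.41e-06, limma). CCL5 levels are not compared between the tables. The part of T and NK cell RNA in the CCL5 values of the PMA table, which lists 8 of the 9 markers, was not tested. CXCL16 rose with ConA (2.85) and was not called with PMA (-0.82).

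CCL5 was also the gene whose pattern lay nearest to CXCL11. Likeness was the root mean square difference of log2(normalized count + 1), each library taken relative to the mean of the controls of its table. Over the 12 libraries and 14660 genes, CCL5 (0.83), GBP4 (1.14), GBP5 (1.23), RSAD2 (1.36) and TNFSF10 (1.53) were nearest to CXCL11. Over the 6 libraries of the ConA table and 15138 genes, CXCL11 was nearest to CXCL10 (0.60), followed by CCL5 (0.96), OLR1 (1.80), GBP4 (1.84) and ZBP1 (1.87). Seen from CXCL11 in the same 6 libraries, CCL5 (0.39) was nearer than CXCL10 (0.60). CXCL9, with its smaller fitted change, was at place 50 for both and had LINC01215 (0.33), KRT6B (0.36) and SAA2-SAA4 (0.38) nearest.

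Of 8 listed genes around the cluster tested with ConA, 1 was called, SCARB2 (log2 fold change 1.50), beside 8.71% of all genes, and with PMA 0 of 7 were called by limma, beside 8.65%, with 5 of the 7 at an unadjusted p under 0.05. SDAD1, next to CXCL9, stood at 2054, 2159 and 2082 normalized counts with ConA and 2183, 2099 and 2015 in the controls, where the groups overlapped (log2 fold change 0.00, adjusted p = 0.999, limma). NUP54, on the far side of ART3, was not called with ConA (0.51) or PMA (0.41), and NAAA was not called with either (0.14 and 0.07).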

How the data were processed

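Polyadenylated RNA of 12 HT1080 libraries was sequenced by a service company, and the submitters' processing notes name Partek, Bowtie2, STAR, DESeq2 and the builds mm10 and hg19, without roles or versions. The deposited values are a signal per gene symbol: per the table names, the authors estimated counts per gene and divided them by a factor per library, separately for each of 2 tables. Under such a factor 81.6% to 83.9% of low values were whole within 0.05 reads, so count tests were not run. Each table lists genes with at least 10 estimated reads in some library. A gene under this in every control was listed only through its treated libraries, which favours a rise without overlap. With ConA these include CXCL9, DPP4, IFNL1, IFNB1, ZBP1, IDO1, CCL3 and CCL4, and with PMA IFNG and PPBP.

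The members and gene lists were chosen with earlier results of these data known. In each table treated and control libraries were compared with limma 3.58.1 (R 4.3.3, variance trend) on log2(value + 1) for genes with a mean of at least 10, with Benjamini-Hochberg adjustment, and the treatments were compared as PMA minus ConA over 12 libraries for genes in both tables. The study's thresholds were used for calls. Scripts were tested on simulated data. Single values were compared by exact permutation tests (scipy 1.17.1). Per-kilobase levels used the longest protein-coding GENCODE v29 transcript, promoter windows came from RefSeq (GRCh38.p14), and numpy 2.4.6, pandas 2.3.3 and matplotlib 3.10.9 were used. Beside the ligands, the named genes were the receptor axis, listed interferons, STAT2, IRF9, IRF1, RELA, NFKB1, the cluster neighbours, the 3 largest changes per list and treatment, and the 5 nearest patterns per ligand, and 1 further gene of this rule is not reported here or counted in the lists. Likeness for CXCL10 and CXCL9 used the 6 libraries of the ConA table, as they are not listed for PMA. Genes named outside this rule (CD3D, LTA, REL, SOCS1, SOCS3, SCARB2, CXCL5) were chosen after their values were seen. Replicate numbers 1 to 3 are shared by PMA, its controls and ConA, and the ConA controls are numbered 4 to 6. The deviations of same-numbered libraries correlated at -0.06 to 0.10 within the PMA table and at -0.017 to 0.040 between ConA and the PMA table, so they were not taken as pairs. For ConA, 1 of 4 B cell, 4 of 7 monocyte, 3 of 4 endothelial and 2 of 2 epithelial markers were listed, at sums of 0 to 10.4, 398 to 484, 135 to 208 and 24.0 to 45.0, and for PMA 1, 4, 3 and 0, at 4.47 to 10.8, 343 to 452, 94.8 to 134 and 0. Alternatives covered pseudocount (0.1, 10), filter (none, 50), scaling, variance trend, threshold, replicate block, joint fit and each library left out, and, added after the data were seen, the shorter CXCL11 transcript.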

Additional observations from a re-analysis of the deposited data

Results flagged for a closer look

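For 1587 of 15030 genes the effects of PMA and ConA differed (limma over 12 libraries, adjusted p of at most 0.0001 and a log2 difference of at least 1), and CXCL11, at -9.20, is among them. Below, each value is the log2 change with PMA minus that with ConA, so a negative value is a higher change with ConA.

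Among the transcription factors and regulators of the ligands it was -2.22 for STAT2, -1.20 for IRF9, -1.66 for IRF1, -2.99 for BATF2, -5.94 for USP18 and -1.16 for TNFAIP3. Among the sensors it was -3.81 for DDX58, -4.80 for IFIH1 and -4.19 for TLR3. Among interferon targets it was -7.35 for IFIT1, -5.86 for IFIT3, -7.63 for MX2, -6.24 for OASL, -8.88 for RSAD2, -9.82 for IFI44L, -3.06 for GBP2, -6.73 for GBP4, -6.77 for GBP5 and -2.08 for CIITA.

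Among chemokines it was -5.15 for CCL4, -7.61 for CCL5, -3.67 for CXCL16, 4.18 for CXCL3 and 1.73 for CXCL8. DPP4, which trims the ligands, had -2.39. The cytokines IL1A and IL1B had 1.07 and 2.42. The genes near a ligand in pattern OLR1, TNFSF10 and VCAM1 had -4.66, -7.68 and -4.58.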

How the results depend on the processing

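CXCL10 and CXCL11 with ConA kept their direction and call in every alternative run, at 9.49 to 10.36 and 8.71 to 9.38 on the log2 scale, and so did the difference of CXCL11 between treatments, at -9.62 to -8.45. CXCL9 with ConA ran from 2.33 (pseudocount 10) to 7.54 (pseudocount 0.1), and was not called without a variance trend (5.08, adjusted p = 0.000188, limma). It has no value at a mean of at least 50. With each library left out, CXCL10 gave 9.81 to 10.36, CXCL11 9.02 to 9.38, CXCL9 4.82 to 5.43, and the rise of CXCL10 over CXCL11 0.67 to 0.98. CXCL11 with PMA was called in no alternative that gave it a value. With a library left out it ran from -0.19 to 0.72 (-0.19 without PMA library 2, -0.08 without PMA control library 1). It has no value without PMA library 1 or at a mean of at least 50, as its mean then lay under the filter. Without a variance trend 867 genes were called with PMA (1310 with it) and 662 with ConA (1318 with it), and the cause was not tested. With the replicate block 1264 genes were called with PMA and CXCL11 stayed at 0.05 (adjusted p = 0.939, limma). With the shorter CXCL11 transcript, chosen after the data were seen, the per-kilobase ratio of CXCL10 to CXCL11 was 1.10 with ConA and 0.633 in the controls, and that of CXCL11 to CXCL9 1082. No fit of ConA against its controls could hold a replicate block, as they share no number. The alternatives planned for CXCL10 and CXCL9 with PMA were not run, as neither is listed in that table.

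Of 166 comparisons of other named genes, 128 kept their call in every alternative, 23 lost it and 9 gained it in some, and 8 changed sign, none of them a called value. Without a variance trend the calls of ACKR3, CXCL3, IRF2 and IRF5 with ConA, of CCL5, CIITA, IFI44L, IFNGR2 and RSAD2 with PMA and of the IL1A and TNFAIP3 differences were among those lost. BATF2 with PMA was -0.0041 after median centring and -0.073 to 0.099 with a library left out. NAAA with PMA was -0.076 to 0.27 and VCAM1 with PMA -0.087 to 0.43 with a library left out. SDAD1 with ConA was -0.040 after quantile normalization, -0.062 after median centring and -0.029 to 0.029 with a library left out. The PMA minus ConA difference of CCL3 was -0.067 with a pseudocount of 0.1 and -0.18 to 0.66 with a library left out. That of LINC01215 was 0.14 with a pseudocount of 10 and after quantile normalization, that of TNF 0.23 and that of NAAA 0.26 after quantile normalization, and that of NAAA -0.22 to 0.13 with a library left out. Depth limits CXCL9 and the unstimulated ligands, which rest on at most 28 reads a library in the controls.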
